A study of Mus musculus with 8 samples.

Results

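The 7 genes described here are markers of Schwann cells and of the myelin they make in skin nerves, namely Mbp, Sox10, S100b, Pmp22, Prx, Mag and Egr2. They were chosen by symbol as Schwann cell and myelin markers, at a point when earlier results of these data were known, and all 7 were found among the 18901 genes of the deposited table. Cheek skin of 8 mice gave 1 RNA library each, 4 from TBX20fl/fl;K14-Cre animals and 4 from littermates of genotype TBX20fl/fl. All 8 were 7-week-old females on a C57BL/6 background, and all carried the floxed Tbx20 allele, in which exons 2 and 3 lie between loxP sites. In TBX20fl/fl;K14-Cre mice the keratin 14 promoter drove Cre in keratinocytes, and Schwann cells are not the cells this promoter is used to target. Every mouse in both groups had received 10 µg of brain natriuretic peptide (BNP) into the cheek and was euthanised 5 h after a 30 min recording. Skin injected with vehicle, uninjected skin and wild-type mice are not among the samples, so an effect of BNP cannot be read from these values.

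Schwann cells wrap the axons of peripheral nerves. Myelinating Schwann cells build a lipid-rich sheath around a single axon, under the control of the transcription factors Sox10 and Egr2 (Krox20), and non-myelinating Schwann cells hold bundles of thin axons, many of which carry itch and pain from the skin. Compact myelin contains the structural proteins Mbp and Pmp22, the membrane facing the axon carries the adhesion molecule Mag, and the outer side of the cell is anchored by periaxin (Prx). S100b, a calcium-binding protein, is found in both kinds of Schwann cell. Several of these genes are also used elsewhere in skin, since Sox10 acts in melanocytes, S100b in adipocytes and melanocytes, Pmp22 in fibroblasts and Egr2 in the hair follicle, where it is also one of the growth factor-induced genes of the Egr family.

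On GRCm38, Sox10 lies on the minus strand of chromosome 15 at 79154913 to 79164490, Mag on the minus strand of chromosome 7 at 30899175 to 30914922 and Prx on the plus strand of chromosome 7 at 27499305 to 27520041. Among the genes on plus strands, S100b lies on chromosome 10 at 76253836 to 76261319 and Pmp22 on chromosome 11 at 63128982 to 63159547. For Egr2 the deposited row joins an unplaced scaffold to chromosome 10, so the RefSeq position is given instead, at 67534469 to 67542188 of chromosome 10. In annotated transcripts, Sox10, S100b, Pmp22, Prx and Egr2 shared no stretch of 50 bases, the read length, with another gene, and Mbp and Mag shared 0.333% and 0.281% of theirs. Exons of Prx overlap those of Gm15541 on the opposite strand, and the sources used here do not say whether reads were counted by strand.

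RefSeq promoter windows, each reaching from 250 bases before to 50 bases after a transcript start on GRCm38.p6, were at hand for 5 of the genes, 14 windows in all. Because the mice differ in a T-box factor, the letters AGGTGTG, which the study used as the TBX20 motif, were searched on both strands. They were in 0 of the 14 windows and in 5.84% of all 32851 windows of the same length. The letters ACAAAG, the core bound by Sox factors, were in 2 windows, which are overlapping windows of Mag, against 18.7% of all windows. The letters GTGGGCG, the core bound by Egr factors, were in 1 window of Egr2 against 7.97% of all windows. A window of each gene is given because Mag is a myelin gene with a Sox core at its start and Egr2 is the gene whose values separated the genotypes. Each is written along the strand of its gene, at chr7:30914814-30915113 on the minus strand for Mag and at chr10:67535249-67535548 on the plus strand for Egr2. Capitals mark the match, which in both cases is the reverse complement of the core, CTTTGT starting 126 bases before the Mag start and CGCCCAC starting 31 bases before the Egr2 start.
Mag: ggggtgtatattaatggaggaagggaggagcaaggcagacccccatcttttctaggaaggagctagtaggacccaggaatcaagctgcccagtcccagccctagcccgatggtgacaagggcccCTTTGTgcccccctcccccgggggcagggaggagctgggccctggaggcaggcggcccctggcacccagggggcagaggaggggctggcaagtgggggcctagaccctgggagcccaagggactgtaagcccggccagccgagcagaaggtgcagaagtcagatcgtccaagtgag
Egr2: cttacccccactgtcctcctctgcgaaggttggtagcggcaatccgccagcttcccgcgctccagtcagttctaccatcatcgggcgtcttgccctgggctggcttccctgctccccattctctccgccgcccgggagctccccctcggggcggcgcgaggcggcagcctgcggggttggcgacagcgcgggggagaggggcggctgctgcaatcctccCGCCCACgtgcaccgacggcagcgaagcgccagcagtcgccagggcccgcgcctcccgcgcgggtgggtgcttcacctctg
These matches are letters only, and no binding was measured in these samples.

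The total count per mouse was 16056282 to 19880654. Tbx20, the targeted gene, had 2, 1, 0 and 1 counts in TBX20fl/fl;K14-Cre replicates 1 to 4 and 2, 1, 0 and 3 counts in TBX20fl/fl replicates 1 to 4, at or under 3 counts everywhere, which is too few to show its loss in these samples. TBX20fl/fl replicate 2 stood apart from the other 7 libraries. Its median Spearman correlation with the others was 0.919, against 0.974 to 0.990, and its FPKM (fragments per kilobase of transcript, scaled to sequencing depth) summed to 772536 against 521852 to 605508. Its values also followed transcript length, and many of the results that rest on it are given with and without it.

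The length pattern in TBX20fl/fl replicate 2 was visible in the Schwann cell genes themselves. The comparison used CPM, the count scaled to library size with TMM factors, in this mouse divided by the median of the other 3 TBX20fl/fl mice. This ratio was 2.05 for S100b, whose transcript length of 1613 bases is the shortest of the 7, and 1.33 for Pmp22 at 1766 bases. It was 0.807 for Mbp at 2250 bases, 0.878 for Mag at 2416 bases, 0.722 for Sox10 at 2663 bases and 0.712 for Egr2 at 2923 bases. It was lowest for Prx, the longest at 4750 bases, at 0.444. The genes thus fell almost in the order of their lengths, apart from Mbp and Mag. Over all genes whose mean count reached 20, the median ratio was 1.78 in 4430 genes under 2000 bases, 1.04 in 3318 genes of 2000 to 3000 bases, 0.758 in 2465 genes of 3000 to 4000 bases and 0.498 in 3979 longer genes. In the other 3 TBX20fl/fl mice, taken in the same way, the medians of these classes stayed between 0.864 and 1.17.

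**Figure D1:**
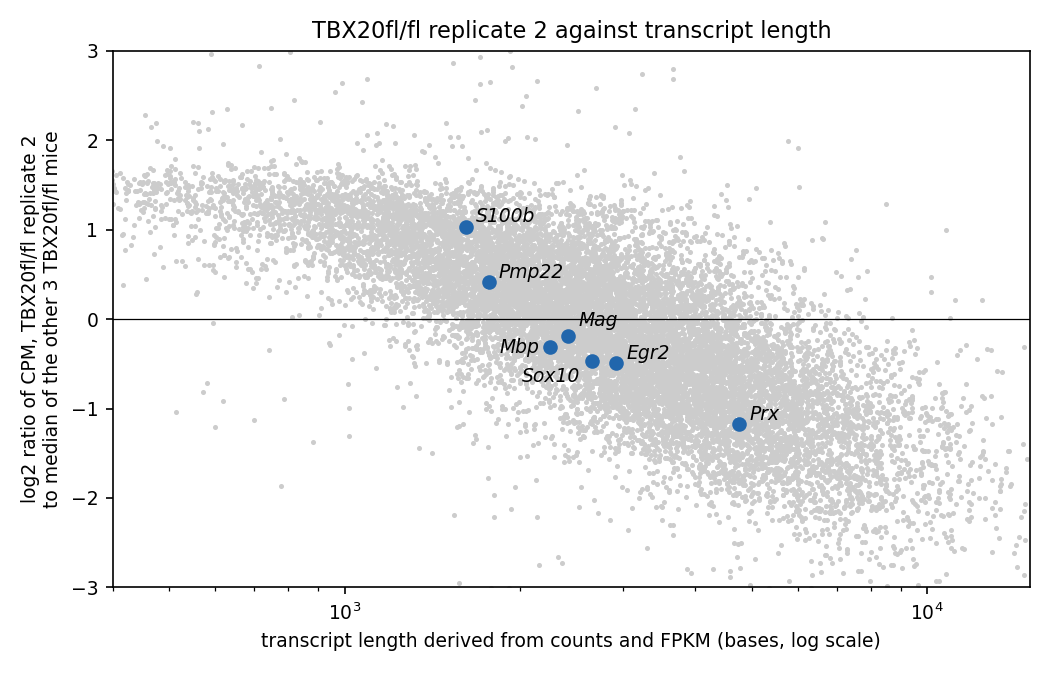
TBX20fl/fl replicate 2 by transcript length. Each grey point is a gene whose mean count reached 20, and the vertical axis is the log2 ratio of its CPM in this mouse to the median of the other 3 TBX20fl/fl mice. The horizontal axis is transcript length in bases on a log scale, and genes beyond the limits of either axis are not drawn. The 7 named points follow the downward slope of all genes, from S100b (ratio 2.05) to Prx (ratio 0.444).

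Levels of the 7 genes could be ordered per transcript length. Pmp22 had the highest mean FPKM over the 8 mice at 106, followed by Mbp at 54.6, Egr2 at 15.1, Prx at 6.63, S100b at 3.09, Sox10 at 2.42 and Mag at 0.804. Pmp22 was above Mbp, Mbp above Egr2, Egr2 above Prx and Sox10 above Mag in 8 of 8 mice. The other neighbours in this order did not hold in every mouse. Prx was above S100b in 7 of 8 mice, the exception being TBX20fl/fl replicate 2, and S100b was above Sox10 in 6 of 8. Pmp22 was higher than 95.5% of all genes in the table by mean FPKM and Mag higher than 28.2%.

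Nerve tissue was present by its Schwann cell genes. Mbp ranged from 34.1 to 72.7 FPKM and the Schwann cell cadherin Cdh19 from 3.87 to 5.80. Of the genes of axons, whose cell bodies lie outside the skin, the neurofilament genes Nefl, Nefm and Nefh were at no more than 0.11, 0.03 and 0.08 FPKM, while Stmn2 was at 8.38 to 16.7 FPKM. In whole skin, fewer Schwann cells and less RNA per cell cannot be told apart.

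Between genotypes, none of the 7 genes passed the threshold. On the rounded counts of 17124 genes, the quasi-likelihood test of edgeR, adjusted after Benjamini and Hochberg, called 0 genes in all (0%) at an adjusted p under 0.05, with a smallest adjusted p of 0.498, and 1431 genes had an unadjusted p under 0.05. DESeq2 called 10 genes, none of them among the 7, with 1954 genes at an unadjusted p under 0.05. limma on log2(FPKM + 1) in 15969 genes also called 0 (0%), with 1046 at an unadjusted p under 0.05. Of the 7 genes, Egr2 alone had an unadjusted edgeR p under 0.05, in the direction of higher levels in TBX20fl/fl;K14-Cre mice, which held for 2.45% of all genes tested. No gene of the 7 had such a p in the opposite direction, against 5.91% of all genes.

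Egr2, the zinc finger factor that starts myelination, was the gene of the 7 whose groups did not overlap. Its FPKM was 16.3, 20.0, 16.5 and 19.6 in TBX20fl/fl;K14-Cre replicates 1 to 4. In TBX20fl/fl replicates 1 to 4 it was 14.8, 7.21, 12.3 and 14.4. All mice of the first group were above all of the second, with the nearest values 16.3 and 14.8 and TBX20fl/fl replicate 2 well below the rest. The mean was 18.1 ± 1.96 (SD, n = 4) against 12.2 ± 3.49 (SD, n = 4), and the two-sided exact permutation test gave p = 0.0286, the smallest that 70 assignments of the mice allow and unadjusted for the 7 genes. Such a lack of overlap in FPKM in this direction was found in 5.45% of the 15969 genes whose mean FPKM reached 0.1, and on the TMM-scaled CPM, where Egr2 was separated too, in 3.65% of 17124 genes. The log2 fold change was 0.44 ± 0.157 (SE) with edgeR (unadjusted p = 0.0199, adjusted p = 0.498), which placed Egr2 at rank 474 of all genes by p. Without TBX20fl/fl replicate 2 it was 0.34 ± 0.106 (SE), with an adjusted p of 0.638. Of 17 alternative fits, 14 gave Egr2 an unadjusted p under 0.05.

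Sox10, the factor that gives Schwann cells their identity, was at 2.36, 2.17, 3.11 and 3.39 FPKM in TBX20fl/fl;K14-Cre replicates 1 to 4 and at 2.68, 1.26, 2.40 and 2.02 in TBX20fl/fl replicates 1 to 4. The groups overlapped, and the 2 highest values were TBX20fl/fl;K14-Cre mice. The log2 fold change of Sox10 was 0.26 ± 0.212 (SE, adjusted p = 0.537 with edgeR), and 0.17 without TBX20fl/fl replicate 2. The exact permutation p for FPKM was 0.200.

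Mbp, which holds the cytoplasmic faces of myelin together, was at 57.1, 46.1, 61.1 and 72.7 FPKM in TBX20fl/fl;K14-Cre mice and at 67.8, 34.1, 54.0 and 44.0 in TBX20fl/fl mice, in order of replicate. The second highest and the lowest value were both TBX20fl/fl mice, and the groups overlapped almost throughout. Its mean was 59.3 ± 11.0 (SD, n = 4) against 49.97 ± 14.4 (SD, n = 4) and its log2 fold change 0.12 ± 0.191 (SE, adjusted p = 0.723 with edgeR).

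Prx, which links the Schwann cell to its basal lamina and spaces the myelin, was at 7.39, 6.60, 8.56 and 8.97 FPKM in TBX20fl/fl;K14-Cre mice and at 8.23, 1.86, 5.57 and 5.88 in TBX20fl/fl mice. TBX20fl/fl replicate 2 had less than any other mouse and replicate 1 of the same group lay within the range of the knockout mice. The log2 fold change of Prx was 0.46 ± 0.298 (SE, adjusted p = 0.508 with edgeR), the largest of the 7 in this fit. It fell to 0.22 ± 0.161 (SE) without TBX20fl/fl replicate 2, where that of Egr2 was 0.34. With the length trend removed, Prx was at 0.26 and Egr2 at 0.41. The exact permutation p for FPKM was 0.114.

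Pmp22, a membrane protein of compact myelin whose dose matters in inherited neuropathy, had the smallest spread of the 7 in TBX20fl/fl mice, with a coefficient of variation of FPKM of 8.25%, while in TBX20fl/fl;K14-Cre mice it was 13.0%, above the 10.8% of Egr2 and the 11.1% of S100b. It was at 97.5, 94.2, 120.4 and 119.6 FPKM in TBX20fl/fl;K14-Cre mice and at 103, 99.2, 117 and 99.2 in TBX20fl/fl mice. Each group held values near the bottom and near the top of the common range. Its log2 fold change was -0.12 ± 0.166 (SE, adjusted p = 0.683 with edgeR) on counts, 0.036 on the log2(FPKM + 1) scale with limma and 0.071 once the trend with length had been taken out of each library, so its direction was not determined.

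S100b was at 2.67, 3.17, 2.55 and 3.15 FPKM in TBX20fl/fl;K14-Cre mice and at 3.29, 4.60, 3.08 and 2.17 in TBX20fl/fl mice. TBX20fl/fl replicate 2 was the highest of all mice, where for 5 of the other genes it was the lowest, and TBX20fl/fl replicate 4 was the lowest. The log2 fold change of S100b was -0.41 ± 0.314 (SE, adjusted p = 0.528 with edgeR), but -0.027 ± 0.195 (SE) without TBX20fl/fl replicate 2 and -0.12 with the length trend removed. Mag, the adhesion molecule facing the axon, was detected at 21 to 53 counts per mouse. It was at 0.69, 0.66, 0.88 and 1.10 FPKM in TBX20fl/fl;K14-Cre mice and at 0.86, 0.54, 0.92 and 0.78 in TBX20fl/fl mice. The groups overlapped, with a log2 fold change for Mag of -0.048 ± 0.239 (SE, adjusted p = 0.917 with edgeR) on counts and 0.045 on log2(FPKM + 1).

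**Figure D2:**
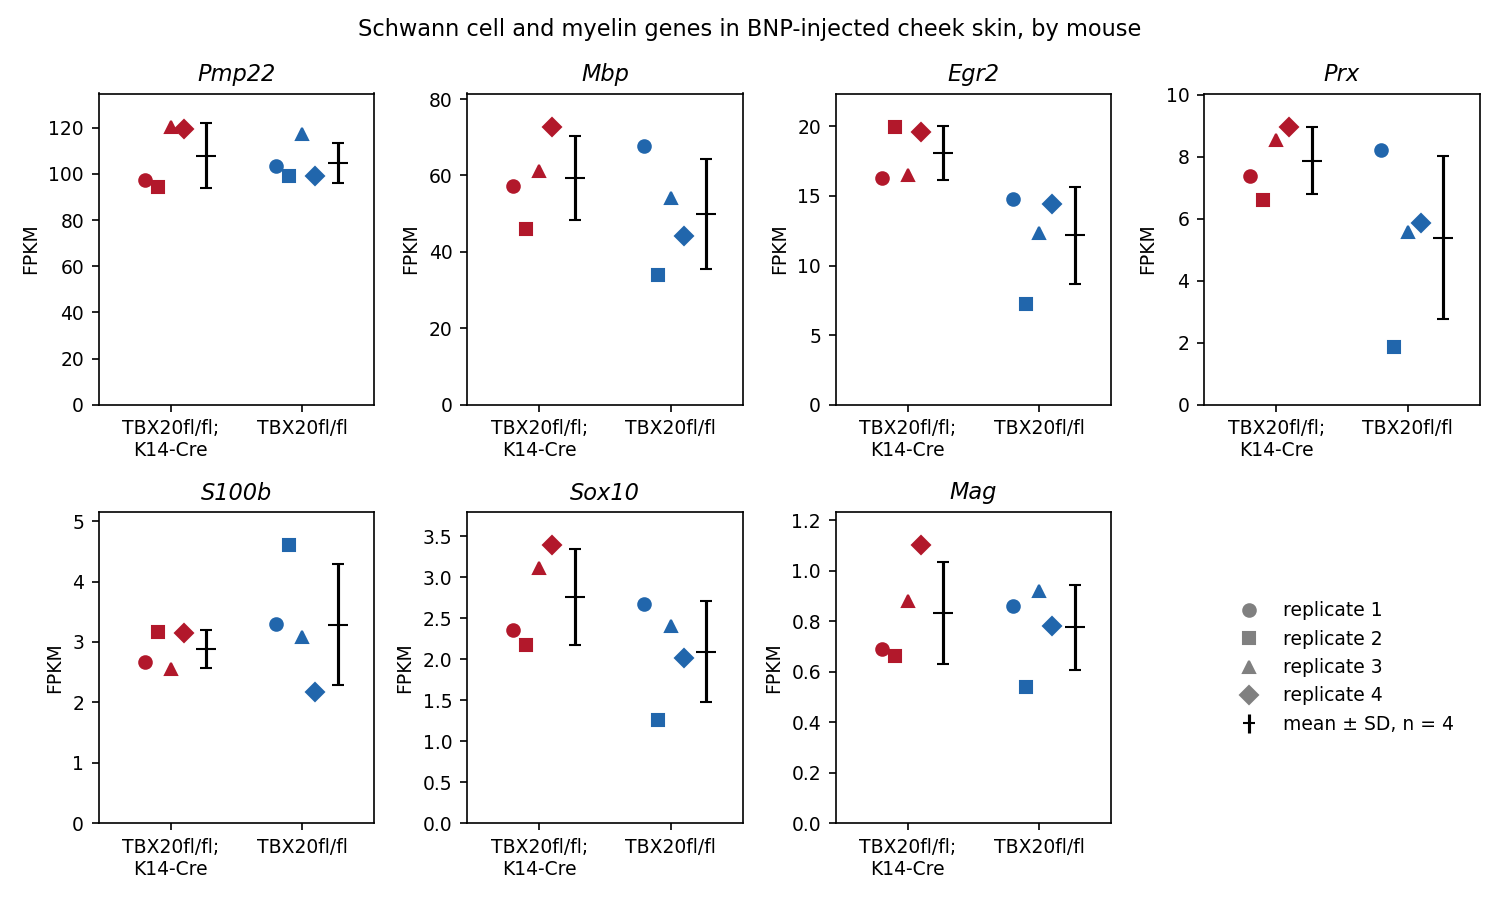
FPKM of the 7 Schwann cell and myelin genes in each mouse. Each point is a mouse, its shape the replicate number, red for TBX20fl/fl;K14-Cre and blue for TBX20fl/fl, and the bars are mean ± SD (n = 4). In the Egr2 panel the red points (16.3 to 20.0) lie above the blue ones (7.21 to 14.8), and in the other 6 panels the groups overlap, with the blue square (replicate 2) lowest for Mbp, Sox10, Prx, Mag and Egr2 and highest for S100b.

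The size of the differences depended on the mice and on the scaling, but no setting brought any of the 7 past the threshold. Leaving out 1 mouse at a time gave a log2 fold change of 0.34 to 0.51 for Egr2, 0.22 to 0.70 for Prx, 0.16 to 0.37 for Sox10, 0.022 to 0.26 for Mbp and -0.60 to -0.027 for S100b. Egr2, Prx, Sox10 and Mbp were higher in TBX20fl/fl;K14-Cre mice in all 17 alternative edgeR and DESeq2 fits, and S100b was lower in all 17, while Pmp22 and Mag changed sign between fits.

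**Figure D3:**
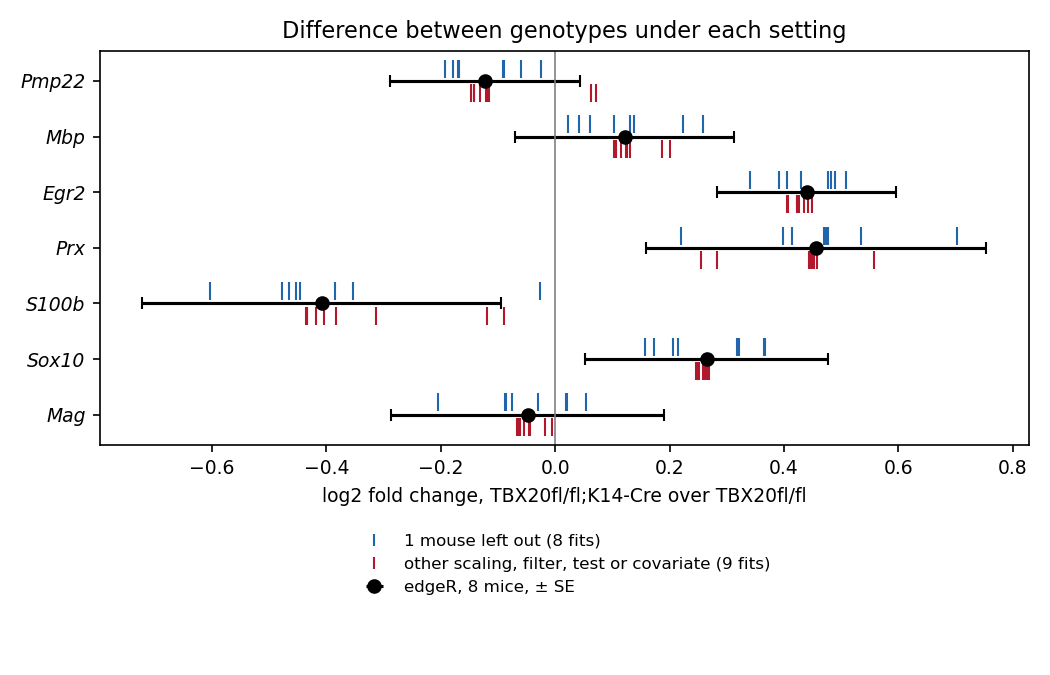
Log2 fold change of each gene between genotypes. Black points are the edgeR fit of all 8 mice with its SE, blue ticks the 8 fits without 1 mouse, and red ticks the 9 other fits (other scaling, filter, test or covariate). The horizontal axis is the log2 fold change of TBX20fl/fl;K14-Cre over TBX20fl/fl. Ticks for Egr2 stay between 0.34 and 0.51, those for S100b reach from -0.60 to -0.027, and those for Pmp22 and Mag lie on both sides of 0.

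The mice could also be compared by whether the 7 genes rose and fell together from mouse to mouse. Pearson's r of log2 CPM was computed over the 8 mice for 14353 genes whose mean count reached 20, as a description, since the points share depth, tissue composition and the library that stood apart. Mbp followed Sox10 closely, with r = 0.920 over 8 mice, 0.897 over the 7 mice without TBX20fl/fl replicate 2 and 0.932 after the length trend was removed. Prx followed Sox10 with r = 0.817, 0.831 and 0.906 in the same 3 versions, and Mag with 0.699, 0.763 and 0.776. Pmp22 had r = 0.031 with Sox10 over 8 mice, but 0.740 without TBX20fl/fl replicate 2 and 0.825 after the length trend was removed. Sox10, Mbp, Prx, Mag and Pmp22 thus varied in the same direction in the last 2 versions.

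S100b and Egr2 did not follow Sox10 in this way. S100b had r = -0.428 with Sox10 over 8 mice, 0.313 without TBX20fl/fl replicate 2 and -0.166 after the length trend was removed. Its correlation with Prx was -0.782 over 8 mice and 0.221 without TBX20fl/fl replicate 2. Egr2 had r = 0.555 with Sox10, which was 0.207 without that mouse and 0.502 after the length trend was removed. With Prx its r was 0.807, 0.465 and 0.654 in the 3 versions. Egr1 and Egr3 are related genes, induced within minutes of stimulation in many cell types. The r of Egr2 with Egr1 was 0.918, 0.861 and 0.902 in the 3 versions, and with Egr3 it was 0.919, 0.814 and 0.881. Of 14352 genes ordered by their r with Egr2, Egr1 ranked at 179, 220 and 154 and Egr3 at 168, 403 and 262, so many other genes followed Egr2 at least as closely. With the basal keratinocyte factor Trp63 it was 0.972 over 8 mice and 0.940 without TBX20fl/fl replicate 2, but 0.463 after the length trend was removed. Egr1 was at 17.9 to 45.1 FPKM in TBX20fl/fl;K14-Cre mice and at 6.51 to 18.2 in TBX20fl/fl mice, with a log2 fold change of 0.90 ± 0.323 (SE, unadjusted p = 0.0209 with edgeR, adjusted p = 0.498), which was 0.72 without TBX20fl/fl replicate 2. For Egr3 these ranges were 17.0 to 19.3 and 5.34 to 17.0 FPKM. Both overlapped between the groups. Of the 12 immediate early genes listed, 8 were higher and 4 lower, 1 at an unadjusted p under 0.05, with a median log2 fold change of 0.14 against 0.026 for all genes tested. That median was -0.13 without TBX20fl/fl;K14-Cre replicate 4 and up to 0.33 without another mouse, so its direction rested on 1 library. The part of these genes, or of keratinocytes, in the Egr2 values was not tested.

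The 10 genes most like Sox10 over the 8 mice were Pou2f2 (r = 0.961), St8sia1 (0.957), Cldn19 (0.956), Plxnb3 (0.952), Sema3b (0.951), Sema3c (0.950), Adra2a (0.946), Rnf103 (0.935), Fmod (0.933) and Tll1 (0.925). Cldn19, the claudin that seals the loops of the myelin sheath, was the one gene among them on the list of myelin proteins. Mbp ranked at 12 of 14352, Prx at 155, Mag at 1106, Egr2 at 4092, Pmp22 at 7408 and S100b at 9736. Cldn19, at 3 over the 8 mice, ranked at 5 without TBX20fl/fl replicate 2 and at 2 after the length trend was removed. Without that mouse the 10 also held Ugt8a (r = 0.943), which makes the galactolipids of myelin.

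Over the 8 mice the genes most like the other 6 were Spats2l, Cited2, Fmod, Sox10 and Pcdhgb5 for Mbp (r = 0.963 to 0.917), and Scara5, Dse, Csf2ra, Cnp and Gsn for Mag (r = 0.965 to 0.918). Cnp, an enzyme of non-compact myelin, was the myelin gene among these. For Prx they were Nes, Cx3cl1, Slc6a8, Ube2z and Zfyve27 (r = 0.990 to 0.988), for Pmp22 Olfml1, Cd34, Nbl1, St6galnac6 and Fam178b (r = 0.977 to 0.952), for S100b Sertad1, Maea, Lpcat2, Setmar and Cd9 (r = 0.985 to 0.979) and for Egr2 Rpa1, Wdr5, Smad1, Trp63 and Wrnip1 (r = 0.988 to 0.972). Without TBX20fl/fl replicate 2, none of the 5 remained for Mbp or Prx, Sertad1 remained for S100b, Rpa1 for Egr2, Olfml1 for Pmp22, and Scara5, Dse and Csf2ra for Mag.

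**Figure D4:**
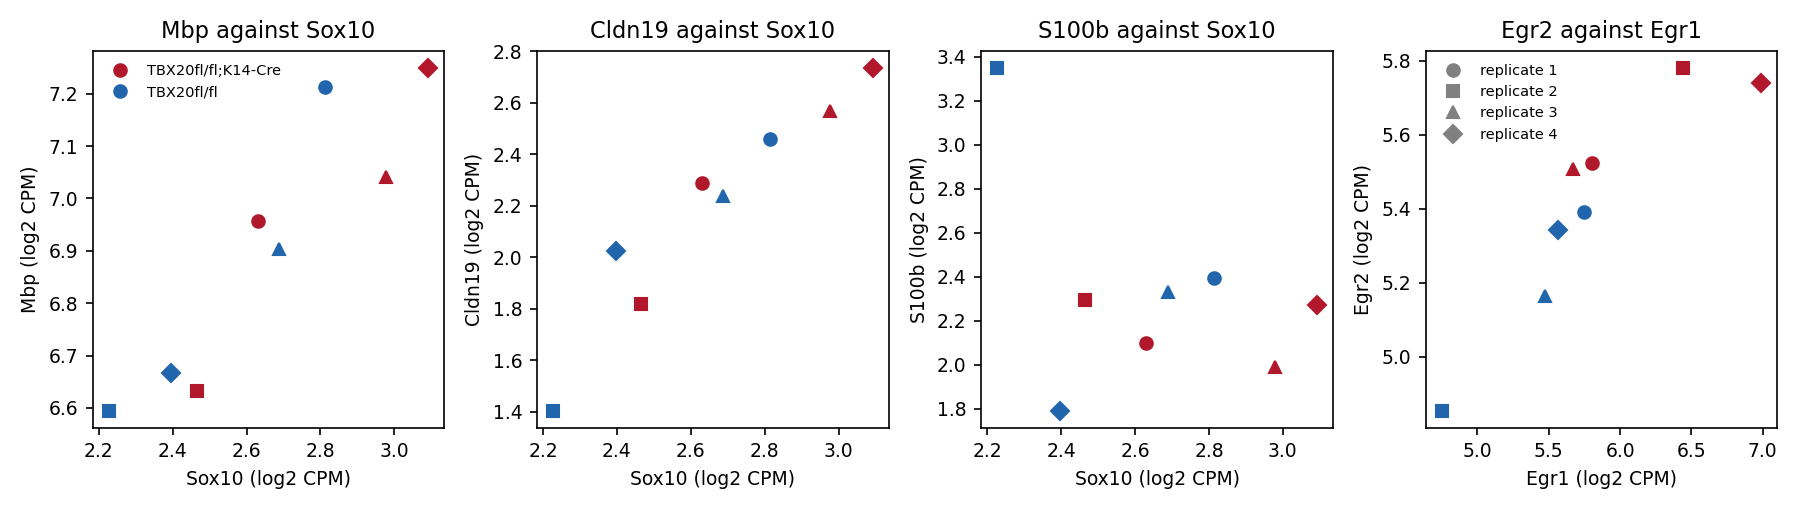
Log2 CPM by mouse for 4 pairs of genes. Each point is a mouse, red for TBX20fl/fl;K14-Cre and blue for TBX20fl/fl, with its shape the replicate number. Mbp rises with Sox10 over all 8 mice (r = 0.920), Cldn19 rises with Sox10 as well (r = 0.956), S100b shows no common course with Sox10, and Egr2 rises with Egr1 (r = 0.918).

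Melanocyte genes were examined because melanocytes also use Sox10. TBX20fl/fl;K14-Cre replicate 2 had a summed FPKM of 117 over 10 melanocyte genes, against 32.03 to 58.5 in the other 7 mice, with the pigment enzyme Dct at 25.3 against 2.29 to 5.71. Sox10 in that mouse was 2.17 FPKM, the lowest of its group. The r of Dct with Sox10 was -0.122 over 8 mice. All 10 melanocyte genes were higher in TBX20fl/fl;K14-Cre mice, 0 of them at an unadjusted p under 0.05, and their median log2 fold change of 1.23 was 0.16 without that mouse. Summed over 10 adipocyte genes, FPKM was 3718 to 5182 in the first group and 3747 to 6409 in the second, and S100b had r = 0.783 with the adipocyte gene Adipoq but -0.950 with the adipocyte gene Plin1. Without TBX20fl/fl replicate 2 these were -0.117 and -0.695, and after the length trend was removed they were -0.188 and -0.814. Of the other cells that share a nerve or the dermis, 5 of 8 endoneurial and perineurial genes were higher (median log2 fold change 0.099), 7 of 10 endothelial genes (0.16), 7 of 10 fibroblast genes (0.40), 4 of 10 macrophage genes (-0.082), 6 of 12 skeletal muscle genes (-0.037) and 8 of 10 keratinocyte genes (0.094). Without TBX20fl/fl replicate 2 the median was 0.010 for endothelial genes, with 5 of 10 higher, 0.23 for fibroblast genes and 0.046 for keratinocyte genes. With the length trend removed it was 0.017 for endothelial and 0.020 for fibroblast genes, and it turned to 0.057 for macrophage and 0.038 for skeletal muscle genes. Leaving out 1 mouse at a time also took the last pair across 0, to -0.26 to 0.042 for macrophage and -0.18 to 0.080 for skeletal muscle genes. Of 10 neutrophil genes, 9 were lower, 6 of them at an unadjusted p under 0.05, against 5.91% of all genes tested, and the median was -1.32. Without TBX20fl/fl replicate 2 and with the length trend removed it was -1.20 and -1.17. The part of these cells in the values of the 7 genes was not tested.

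Of 16 further myelin protein genes, 8 were higher and 8 lower in TBX20fl/fl;K14-Cre mice, with 0 at an unadjusted p under 0.05 and a median log2 fold change of 0.068 against 0.026 for all genes tested. Of all 17124 genes tested, 8987 were higher and 8137 lower. For the 7 genes themselves the median was 0.12, which was 0.041 without TBX20fl/fl replicate 2, as was 0.040 for the 16. The membrane scaffold gene listed as Mpp6, also known as Pals2, had a log2 fold change of -0.39 ± 0.210 (SE) and the scaffold gene Mpdz one of 0.54 ± 0.324 (SE), with adjusted p = 0.498 and 0.501 in edgeR. Without TBX20fl/fl replicate 2 these were -0.17 for Mpp6 and 0.27 for Mpdz. Mpdz was at 1.85 FPKM in TBX20fl/fl replicate 2 against 6.08 to 9.90 in the other 7 mice.

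Cldn19 gave different pictures by count and by FPKM. Its counts were 95, 72, 122 and 140 in TBX20fl/fl;K14-Cre mice and 109, 30, 88 and 79 in TBX20fl/fl mice, with a log2 fold change of 0.31 ± 0.281 (SE), which was 0.14 without TBX20fl/fl replicate 2. Its FPKM was 1.33, 1.23, 1.90 and 2.09 in the first group and 2.18, 1.32, 2.26 and 2.04 in the second, where the mean was higher. The transcript length implied by count, FPKM and total count was 2963 to 3708 bases in the first group and 1415 to 2553 bases in the second, with no overlap. An implied length that was longer in every TBX20fl/fl;K14-Cre mouse was found in 2.30% of 13139 genes. For Mbp, Sox10, S100b, Pmp22, Prx and Egr2, Mag being too low for this measure, the ranges of the groups overlapped, from 1609 to 1614 bases over all mice for S100b to 2082 to 2403 bases for Mbp. Cldn19 was singled out after its values were seen.

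Among transcription factors of the Schwann cell lineage, 8 of 11 were higher and 3 lower, with a median log2 fold change of 0.29, which was 0.15 without TBX20fl/fl replicate 2. Id2, an inhibitor of differentiation factors, had the highest level and a lower mean in TBX20fl/fl;K14-Cre mice, at 56.8 to 76.7 FPKM against 64.1 to 168, where TBX20fl/fl replicate 2 was at 168. Its log2 fold change was -0.94 ± 0.373 (SE, unadjusted p = 0.0316 with edgeR), and -0.41 without that mouse. Tfap2a, a factor of immature Schwann cells that is also strongly used in keratinocytes, was at 9.54 to 11.3 FPKM against 3.24 to 8.41, without overlap, and had a log2 fold change of 0.52 ± 0.194 (SE, unadjusted p = 0.0241 with edgeR). Without TBX20fl/fl replicate 2 it was 0.37. Nab1, a co-factor of Egr2, had a log2 fold change of -0.099 ± 0.123 (SE). With the length trend removed it was -0.25 (unadjusted p = 0.0377 with edgeR, adjusted p = 0.532). The related Egr2 co-factor Nab2, singled out after its values were seen, was at 15.3 to 20.1 FPKM against 9.45 to 14.5, without overlap, and had a log2 fold change of 0.29 ± 0.138 (SE, unadjusted p = 0.0635 with edgeR). All 4 had an adjusted p of at least 0.498. Groups that did not overlap in FPKM, with TBX20fl/fl;K14-Cre mice higher, were found in 5.45% of 15969 genes. Tfap2a was named for its small p and Nab2 after its values were seen, so their lack of overlap adds no support.

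Of 12 receptors and ligands through which Schwann cells meet axons and matrix, 11 were higher and 1 lower, with a median log2 fold change of 0.39. The median was 0.23 without TBX20fl/fl replicate 2. With the length trend removed it was 0.12, with 9 higher and 3 lower. The growth factor Gas6 was at 114 to 159 FPKM against 41.1 to 127, and dystroglycan (Dag1), a laminin receptor, at 34.3 to 43.5 FPKM against 7.30 to 34.4. In both genes TBX20fl/fl replicate 2 was far below the other 7 mice. Adam22, the receptor of the myelination signal Lgi4, was at 0.71 to 0.99 FPKM against 0.24 to 0.59, without overlap, and had a log2 fold change of 0.58 ± 0.217 (SE, unadjusted p = 0.0241 with edgeR, adjusted p = 0.498). With the length trend removed it was 0.094. Adam22 was named for its small p, and 5.45% of 15969 genes lacked overlap in FPKM in this direction. Gfra3, the artemin receptor, had a log2 fold change of 0.81 ± 0.363 (SE, unadjusted p = 0.0512 with edgeR), which was 0.60 without TBX20fl/fl replicate 2.

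Myelin lipid synthesis genes were divided, with 6 of 10 higher and 4 lower and a median log2 fold change of 0.075, which was 0.017 without TBX20fl/fl replicate 2. Several of these genes are also active in sebaceous glands and epidermis, and their levels ran from 0.51 to 1.16 FPKM for Ugt8a up to those of the next 2 genes. Fa2h, which hydroxylates the fatty acids of myelin galactolipids, was at 106 to 178 FPKM in TBX20fl/fl;K14-Cre mice and at 68.6 to 204 in TBX20fl/fl mice, and the cholesterol synthesis enzyme Hmgcs1 at 119 to 131 against 87.7 to 160. The sterol regulator Srebf2 had a log2 fold change of 0.44 ± 0.281 (SE) and the sulfatide enzyme Gal3st1 one of 0.29 ± 0.207 (SE), with adjusted p = 0.507 and 0.516 in edgeR. For Srebf2, which was at 4.51 FPKM in TBX20fl/fl replicate 2 against 11.97 to 20.46 in the other 7 mice, it was 0.21 without that mouse.

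Of 14 genes of non-myelinating and repair Schwann cells, 11 were higher and 3 lower. Of the higher ones, 3 had an unadjusted edgeR p under 0.05, against 2.45% of all genes tested. The median log2 fold change was 0.33, which was 0.22 without TBX20fl/fl replicate 2. With the length trend removed it was 0.10, with 8 higher and 6 lower. Scn7a, a sodium channel of non-myelinating Schwann cells, was at 10.8 to 14.3 FPKM against 4.60 to 12.1, and Cdh19 at 3.87 to 5.36 against 4.26 to 5.80. Shh, a ligand induced in repair Schwann cells and expressed in the hair follicle, was at 3.11 FPKM in TBX20fl/fl;K14-Cre replicate 2 and at 0.00 to 0.28 in the other 7 mice.

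Of 10 axonal genes tested, 2 were higher and 8 lower, with a median log2 fold change of -0.53, or -0.29 without TBX20fl/fl replicate 2 and -0.21 with the length trend removed. Scn10a was too low to be tested. Stmn2, a growth cone protein, was highest at 8.38 to 16.7 FPKM and the neuronal tubulin Tubb3 next, with 4.74 FPKM in TBX20fl/fl;K14-Cre replicate 2 against 0.36 to 1.70 in the others. The log2 fold change of Stmn2 was -0.34 ± 0.313 (SE, adjusted p = 0.565 with edgeR), and 0.12 without TBX20fl/fl replicate 2, its highest value. Nefh had 2, 3, 1 and 2 counts in TBX20fl/fl;K14-Cre mice, all at or under 3, and 4, 2, 6 and 4 in TBX20fl/fl mice, with an unadjusted p of 0.0420 in edgeR and 0.146 in DESeq2. Calca, the peptide of peptidergic fibres, had a log2 fold change of -0.84 ± 0.512 (SE), which was -0.35 without TBX20fl/fl replicate 2. The adjusted edgeR p of both was at least 0.498.

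**Figure D5:**
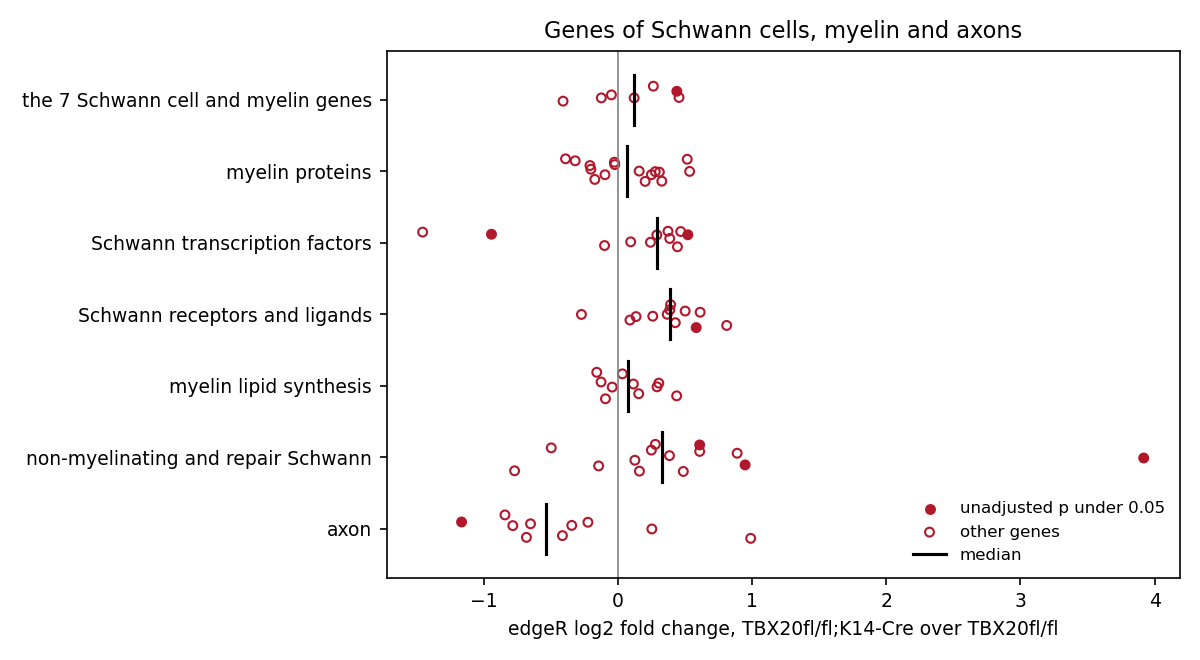
Log2 fold changes of Schwann cell, myelin and axon genes between genotypes. Each point is a gene, filled where its unadjusted edgeR p was under 0.05, and the black bar is the median of its list. The horizontal axis is the edgeR log2 fold change of TBX20fl/fl;K14-Cre over TBX20fl/fl. Medians lie between 0.068 and 0.39 for the lists of Schwann cell and myelin genes and at -0.53 for axon genes, and no point passed the adjusted threshold.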

How the data were processed

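Skin RNA was purified with oligo(dT) beads and sequenced by the authors (single-end, 50 bases), and HISAT is named in the submitters' processing notes. The counting program is not given in the sources used here. The authors deposited expected counts (estimated, not normalized, 69.0% of those above 0 not whole) and FPKM for 18901 genes in 8 mice. Their log2 fold changes and p-values for 17 comparisons were not used. Counts were rounded, and 17124 genes whose counts summed to 10 or more were tested with edgeR 4.0.16 (TMM, quasi-likelihood, Benjamini-Hochberg). FPKM was tested with limma 3.58.1 on log2(FPKM + 1) and, for each of the 7 genes, with two-sided exact permutation tests. DESeq2 1.42.0, other scalings and filters, a length-trend offset, a skeletal muscle covariate, a replicate block and leaving out each mouse were alternatives. Total counts were 16056282 to 19880654, and 3 counts were taken as the floor, for counting error only. Standard errors are the log2 fold change over the square root of the F statistic. The edgeR, DESeq2 and limma tests were tested on simulated counts, and the permutation test on made-up values of separate and of equal groups.

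The 7 genes and the gene lists were chosen with earlier results of these data known. Named genes were, from each nerve list, the 2 of highest mean FPKM and the 2 of smallest edgeR p, and the genes most correlated with each of the 7. Correlations without TBX20fl/fl replicate 2 or after length-trend removal were added after seeing the data. The reported fits and permutation tests were unpaired, and the replicate block stood as an alternative. Same-numbered mice deviated together (r = 0.323, 0.275, 0.176 and 0.108) although they are different animals, but some differently numbered mice did as well (r up to 0.320). 1 listed gene was not analysed here. Some genes that the rule would name are not reported here.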

Additional observations from a re-analysis of the deposited data

Results flagged for a closer look

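In 86 groups of 4 values, a mouse was looked for that lay far from its 3 companions, which chance alone gives in about 4.30. Of the 12 found, 6 were TBX20fl/fl replicate 2, the library that stood apart by transcript length. In this mouse Nab1 was at 18.1 FPKM against 27.9 to 28.4, Gas6 at 41.1 against 114.6 to 127, Adam22 at 0.24 against 0.57 to 0.59 and Scn7a at 4.60 against 11.3 to 12.1. The summed FPKM of the receptors and ligands was 74.6 there against 207 to 223, and Stmn2 alone was high, at 16.7 FPKM against 8.38 to 9.74.

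The other 6 were TBX20fl/fl;K14-Cre replicate 2. Its Tfap2a was 11.3 FPKM against 9.54 to 9.70, its Shh 3.11 against 0.04 to 0.28 and its Tubb3 4.74 against 0.56 to 0.96, while Cdh19 was low at 3.87 against 5.18 to 5.36. Summed FPKM in this mouse was 215 for receptors and ligands against 267 to 273, and 19.3 for axon genes against 13.8 to 14.1. None of the 7 genes had a mouse set apart in this way, and the causes of these values were not tested.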

How the results depend on the processing

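Across 17 alternative fits none of the 7 genes passed the threshold. The count over all genes changed once, from 0 to 10 with DESeq2, and the replicate block left it at 0, changing no call. With the length trend as an offset, without and with the replicate block, Pmp22 reversed to 0.071 and 0.063 (log2) and Scn7a to -0.18 and -0.17. Medians then moved to 0.10 and 0.076 for non-myelinating and repair genes, -0.21 and -0.24 for axon, -0.014 and -0.011 for endoneurial and perineurial, 0.23 and 0.17 for adipocyte and 0.020 and -0.010 for fibroblast genes. The filterByExpr filter moved the neutrophil median to -0.96. Leaving out 1 mouse at a time reversed Mag (-0.21 to 0.054), Fa2h (-0.020 to 0.43), Hmgcs1 (-0.18 to 0.10), Stmn2 (-0.50 to 0.12) and Tubb3 (-0.17 to 1.57), and on log2(FPKM + 1) S100b (-0.25 to 0.023), Pmp22 (-0.019 to 0.098) and Mag (-0.023 to 0.090). The number of the 7 genes with an exact permutation p under 0.05 was 1 over 8 mice and 0 to 2 with 1 mouse left out. Medians ranged from 0.060 to 0.23 for endoneurial and perineurial and from 0.16 to 1.57 for melanocyte genes, lowest without TBX20fl/fl;K14-Cre replicate 2. Causes of these shifts were not tested. With 4 mice a group and a library that followed transcript length, differences of the size seen here in Sox10, Prx or S100b could not be told from the spread between mice. Egr2, whose groups did not overlap, did not pass the threshold either (adjusted p = 0.498 with edgeR). Without TBX20fl/fl;K14-Cre replicate 2 or 4, or TBX20fl/fl replicate 3, none of the 7 genes had an unadjusted edgeR p under 0.05.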
